A study of Saccharomyces cerevisiae with 14 samples.

Results

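The comparison concerns budding yeast lacking RNase H, labelled h1D-h2D, set against wild type, labelled WT, and uses 4 of the 14 Rad52 ChIP-seq libraries of the series, 2 per genotype. The libraries were picked by their titles: h1D-h2D libraries that carry no degron tag, and the WT libraries. The whole series holds 8 groups, and asks where Rad52 gathers once the machineries that clear DNA-RNA hybrids are removed. h1D-h2D was read as loss of RNH1 and RNH201, since the study's design names those genes as its RNases H; the labels do not spell the genotype out. Both genotypes are given the strain background "288C" in the labels, and both received auxin at 0.5 µM for 4 h, although no label names a degron in either. Chromatin was fixed with paraformaldehyde and precipitated with an antibody to Rad52. Nothing in the labels says that replicates were separate cultures or that either strain is more than 1 clone, so p-values measure only the spread between these samples, which may be technical.

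RNase H enzymes cut the RNA strand of a DNA-RNA hybrid, and are the main enzymes that do so in yeast. Rnh1 acts as a single protein, and Rnh201 is the catalytic subunit of RNase H2, which also removes ribonucleotides built into DNA. Hybrids are known to form at highly transcribed genes, among them tRNA, ribosomal RNA and ribosomal protein genes, Ty retrotransposons and telomeres, and Rad52, a homologous recombination protein, gathers at broken DNA.

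Each library is a list of peaks made by the authors, with a position and a score. The score is the authors' own and its scale is not given, so each peak was placed by its percentile in its own list, where 100 is the top. Peaks of the 4 lists that overlapped by at least 1 bp were merged, which gave 738 nuclear regions, called by the genes they overlap. Read depth is unknown. These are bulk samples, so fewer cells with Rad52 at a site and less Rad52 per cell cannot be told apart. The peak lists do not check the genotype, because no peak overlapped RNH1 (XIII 740266–741312) or RNH201 (XIV 490317–491240) in any of the 4 lists. The nearest peak lay 6051 and 6070 bp from RNH1 in h1D-h2D and 5984 and 6098 bp in WT, and 1617 and 1997 bp from RNH201 in h1D-h2D and 1771 and 1817 bp in WT. RAD52, SEN1, TOP1 and the RNase H2 subunit genes RNH202 and RNH203 were also without a peak.

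The h1D-h2D peak lists were close in size to the WT lists. They held 634 and 578 nuclear peaks in h1D-h2D and 666 and 617 in WT, which is 606 ± 39.6 against 641.5 ± 34.6 (SD, n = 2 each; exact two-sided permutation test, p = 0.667). With 2 libraries against 2 this exact test cannot go below p = 0.333. Peaks covered 1504 and 1101 kb in h1D-h2D and 1660 and 1294 kb in WT (1302 ± 285 against 1477 ± 258 kb, SD, n = 2 each; exact p = 0.667). Median peak width was 2066 and 1505 bp in h1D-h2D and 2196.5 and 1766 bp in WT (exact permutation p = 0.667). In all of these measures the genotypes overlapped, and the gap between replicate 1 and replicate 2 of a genotype was wider than the gap between the genotype means. Without h1D-h2D replicate 2 the difference in covered length was 26.9 kb and that in median width 84.75 bp, and without WT replicate 1 they were 8.14 kb and 19.5 bp, all higher in h1D-h2D.

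**Figure D1:**
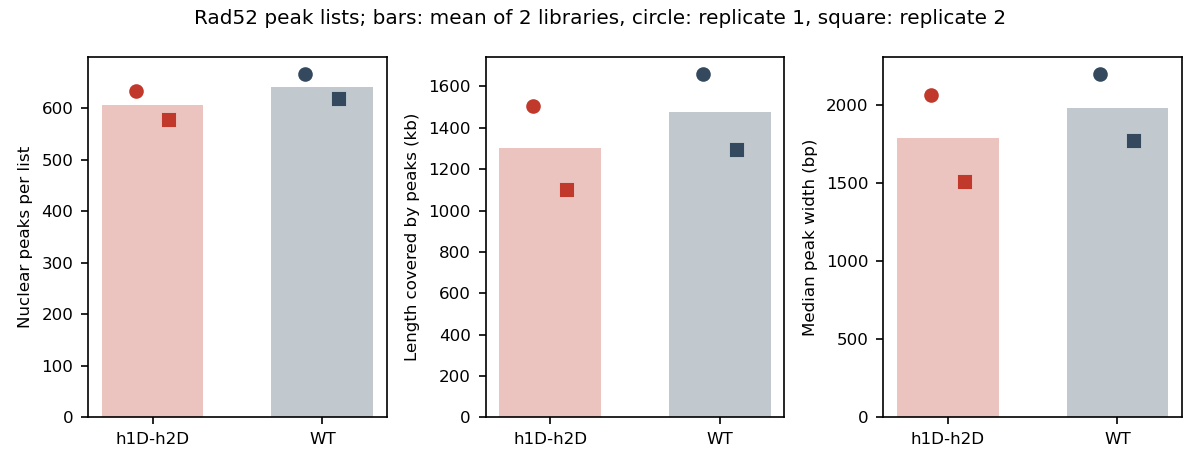
Number of nuclear Rad52 peaks, nuclear length they cover (kb) and median peak width (bp) in the 2 h1D-h2D libraries (left) and the 2 WT libraries (right). Bars are means, circles replicate 1 and squares replicate 2; in each panel h1D-h2D replicate 1 lies above WT replicate 2, so the genotypes overlap.

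The genotypes shared most of their Rad52 sites. Of the 738 regions, 497 were in all 4 lists, which is 93.2% of the 533 regions found in both h1D-h2D libraries and 87.5% of the 568 found in both WT libraries. The share of covered length that 2 libraries have in common (Jaccard index) was 0.629 between the h1D-h2D libraries and 0.674 between the WT libraries. Across genotypes it ran between 0.560 and 0.760, a range that spans both within-genotype values. The 10 regions with the highest scores in all 4 lists held ENO2 (enolase), TEF1 and TEF2 (elongation factor 1A), ADH1 (alcohol dehydrogenase) and RPL8A, besides PDC1, RPL28, RPL33B, TDH3 and YEF3. Among the 497 shared regions, ENO2 (VIII 450120–453558) ranked at 99.6 and 99.8 in h1D-h2D and 99.6 and 100 in WT. TEF1 (XVI 699533–702739) ranked at 99.8 and 99.0 in h1D-h2D and 100 and 99.8 in WT. These 10 were chosen for ranking high in all 4 lists, and not every top region did so. A region holding YLR161W, YLR162W and the 5S ribosomal RNA gene RDN5-6 (XII 488817–490871) was named after its values were seen. It ranked at 79.9 and 100 in h1D-h2D and 77.5 and 96.6 in WT. In h1D-h2D replicate 2 peaks overlapped 0 of 14 ribosomal DNA genes, so the rank of 100 there is not that of a peak over RDN5-6.

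Few sites were found in h1D-h2D alone. A peak in both h1D-h2D lists and neither WT list was seen in 9 regions (1.22% of 738), while 15 were in h1D-h2D replicate 1 alone and 10 in h1D-h2D replicate 2 alone. The 9 regions are called gained here, and since presence in these lists chose them, their values are a description. Of the 9, 5 lay over HXT6, FLO5, FLO1, ENO1 or BAP3, and the others over an snoRNA gene, a Ty element, NCS6 with YPT32, or no gene. In 8 of 9 the mean percentile was under 25, near the bottom of the h1D-h2D lists. Every list ends just above a score of 50, so these peaks lay near the lower limit of the lists.

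HXT6, a high-affinity hexose transporter gene, carried the highest-scoring gained region (IV 1158876–1160807), at percentiles of 40.9 and 54.8 and peak lengths of 1929 and 1404 bp in h1D-h2D. The nearest WT peak lay 1553 bp away in WT replicate 1, a 4111 bp peak over the next hexose transporter gene, HXT3, and 7370 bp away in WT replicate 2. HXT3 (low-affinity glucose transport) had its own peak at 34.4 and 22.8 in h1D-h2D, against 57.7 in WT replicate 1 and none in WT replicate 2. HXT1, another low-affinity transporter gene, had a peak in all 4 lists. Of HXT1 to HXT7, 4 and 3 genes were covered in h1D-h2D and 2 and 1 in WT, so the genotypes did not overlap (exact permutation p = 0.333). At or above the pooled median score the mean difference turned from 2 to −1. That limit left 199 peaks in h1D-h2D replicate 2 and 325 to 368 in the other lists. HXT6 and HXT7 are near-identical copies, and how the authors placed reads that fit both is not given, so the site may be either; HXT7 had no peak. Of the 4 combined-mutant libraries, which lack RNase H and also Sen1 or Top1, 3 had a peak in the HXT6 region, and so did the 3 Gal-HO libraries, which come from another strain; none of the 3 libraries lacking Sen1 or Top1 alone did.

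FLO1 and FLO5, cell-surface flocculins that make cells stick to each other, were both gained, and no peak touched any of the 5 FLO genes in WT. FLO5 (region VIII 526262–527390) stood at percentiles of 13.1 and 33.8 with peaks of 1113 and 1076 bp. FLO1 (region I 206128–206918) stood at 8.99 and 8.91 with peaks of 791 and 738 bp. These short peaks lay inside the repeat-rich coding sequence of each gene, and FLO1 and FLO5 are close relatives that can share reads. FLO9, FLO10 and FLO11 had no peak in any of the 4 lists. The FLO1 region was in none of the other 10 libraries of the series, and that of FLO5 in 2 Gal-HO libraries.

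ENO1, the second enolase gene, was gained at 11.6 and 22.0 (VII 1000010–1002762), with WT peaks 941 and 937 bp away. Its region had a peak in 6 other libraries of the series, among them Sen1-AID replicate 1 and the Top1-AID library. BAP3, a branched-chain amino acid permease gene, was gained at 16.2 and 0.865 (IV 548404–551437) and had a peak in no other library of the series. The other gained regions scored lower still. A Ty element, YML045W, lay with PRP39 (splicing), a tRNA gene and RRN11 (RNA polymerase I initiation) in a region of 7161 and 6956 bp (XIII 183298–190458) at 3.31 and 9.69. The snoRNA gene SNR62 and CUE5 shared a region at 8.68 and 6.92 (XV 408966–410474), only 352 and 377 bp from a WT peak. NCS6, which modifies tRNA, and YPT32, a Rab GTPase gene, shared one at 5.99 and 2.42 (VII 93568–95077), and a stretch near the left end of chromosome V that overlaps no gene (V 5830–7003) stood at 10.6 and 5.36. Of the 9 gained regions, 7 were in none of the 4 combined-mutant libraries, and 2 lay within 1 kb of a WT peak. In at least 1 of the 3 libraries lacking Sen1 or Top1 alone, 5 had a peak, and in at least 1 Gal-HO library 6 did. In no other library of the series were 2 of the 9.

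More sites were found in WT alone. A peak in both WT lists and neither h1D-h2D list was seen in 20 regions (2.71% of 738), while 41 were in WT replicate 1 alone and 13 in WT replicate 2 alone. With all 4 lists cut to equal length, 16 regions were lost and 13 gained. These lost regions, again chosen by their presence, overlapped a Ty locus in 5 cases, a tRNA gene in 4, a snoRNA gene in 2, and the 20 kb at a chromosome end in 3. Of all 738 regions, 239 overlapped a tRNA gene and 47 lay within 20 kb of a chromosome end. No such count is given here for Ty loci or snoRNA genes. Their mean percentile in WT was under 25 in 11 of 20, and 5 lay within 1 kb of an h1D-h2D peak.

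Ty retrotransposons headed the lost regions. The first was on YNL054W-B (XIV 522654–525243), at 39.9 and 58.0 in WT, although h1D-h2D replicate 2 had a separate peak 185 bp away over the same element. A region of YNL284C-B (XIV 99141–100970) stood at 55.6 and 21.2 in WT, and here too h1D-h2D replicate 2 had a peak nearby, at 427 bp. YDR365W-B (IV 1206509–1212771) stood at 47.6 and 24.8 in WT, with peaks of 6263 and 6140 bp, and the nearest h1D-h2D peaks were 4045 and 4139 bp away. YBL005W-B, beside a tRNA gene and UTP20 (II 224436–227886), stood at 17.9 and 21.1. Both regions at the top of the list, on YNL054W-B and YNL284C-B, had a peak in all 4 combined-mutant libraries. Ty copies share reads, so a peak may belong to another copy.

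Among protein-coding genes, FAS2, a subunit of fatty acid synthase, had peaks at 56.6 and 6.65 in WT (XVI 109300–114871) and none in h1D-h2D. The sterol synthesis gene ERG13 with RSC9 and PGA3 (XIII 18337–21456) stood at a mean of 33.2, and ERG10, also of sterol synthesis, at 18.0 and 13.8 (XVI 497877–499815). The iron reductase gene FRE1 with CRR1 and CDC123 (XII 567767–571061) stood at 41.6 and 14.3 and IRC7, a beta-lyase gene, at 44.9 and 5.51 (VI 263112–266095). WT replicate 1 was the higher of the WT libraries in each of these 5, by a wide margin in all but ERG10. PAB1, the poly(A)-binding protein, stood at 27.8 and 1.13 (V 510311–512514), and the deadenylase gene POP2 with NOG2 and the snoRNA gene SNR191 at 14.0 and 18.6 (XIV 720504–723501). RPS18B was the only lost ribosomal protein gene, at 6.31 and 14.9 (XIII 222030–224893), with h1D-h2D peaks 166 and 512 bp away. The first 1294 bp of chromosome IV, which hold no gene, stood at 61.7 and 6.16. PPT1, a protein phosphatase gene, with the tRNA gene YNCG0032W stood at 19.5 and 38.2 (VII 735719–737062), and PUS9, which modifies tRNA, at 36.8 and 10.5 (IV 386049–387790). The rest overlapped KRS1, TIF2, SUF16 with SNR33, ICR1, and a further part of YNL284C-B with MRPL10. Of the 20, 5 were in none of the other 10 libraries.

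**Figure D2:**
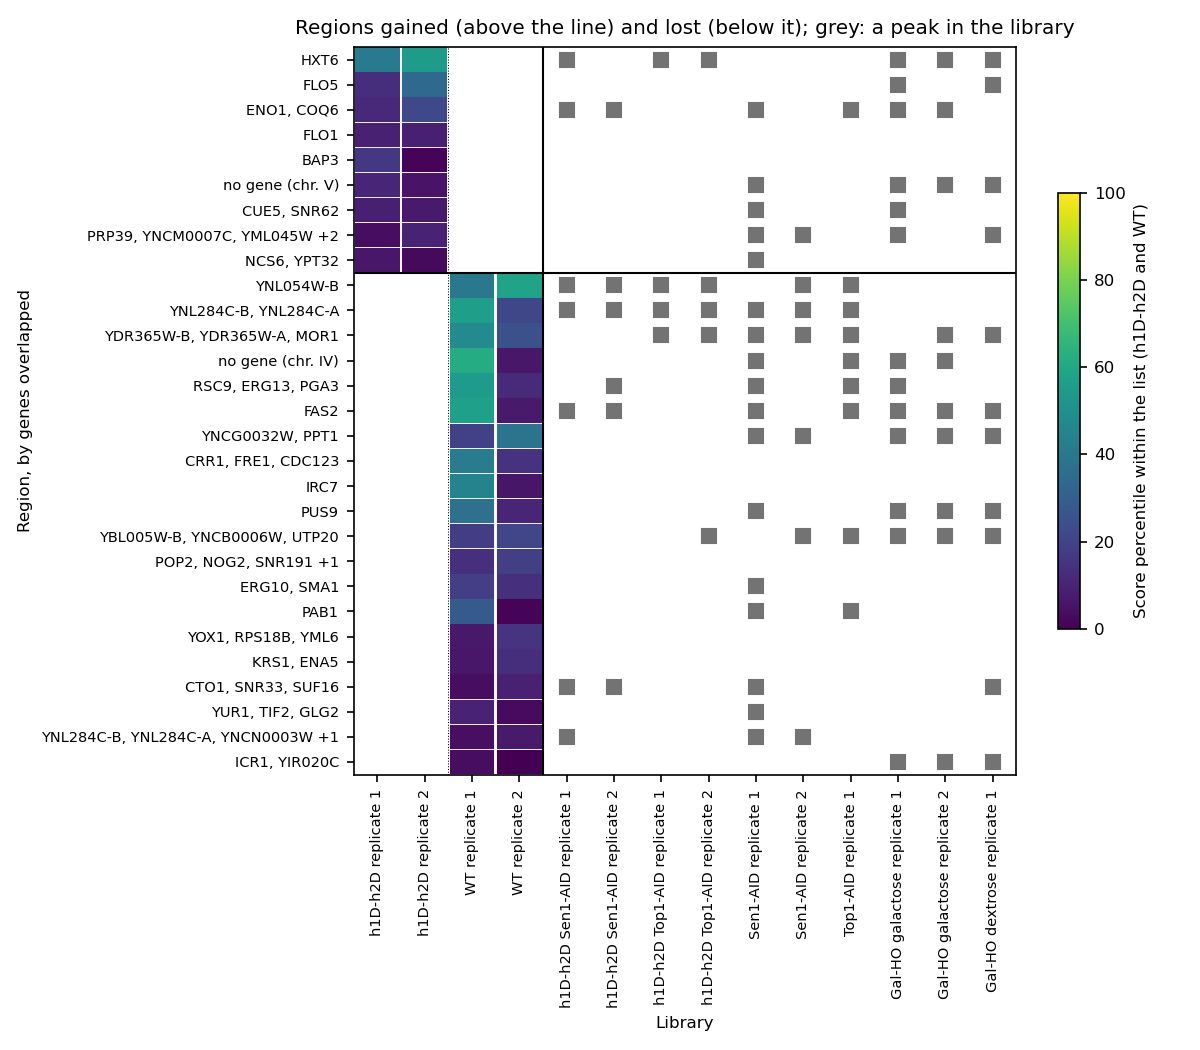
The 9 regions gained and the 20 lost (rows), named by the genes they overlap, in the 14 libraries of the series (columns). Colours give the score percentile within the h1D-h2D and WT lists, blank means no peak, and grey squares mark a peak in the other 10 libraries; HXT6 and YNL054W-B head the groups, and most other cells are dark, that is low in their list.

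A few genes changed status because the peak beside them ended earlier or later. Counted per gene, 17 of 6431 (0.264%) were covered in both h1D-h2D lists and neither WT list, and 44 (0.684%) the other way round. One of the 17, URA3, is named after its values were seen: it overlapped a region with TIM9 and RPR1, the RNase P RNA gene (V 116634–118665), that was 2000 and 1626 bp long in h1D-h2D and 1690 and 1611 bp in WT. The lengths overlap between the genotypes. YFL064C and YFL065C, helicase-like genes of a Y prime element at the left end of chromosome VI, were also among the 17.

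For most gene classes the numbers covered by Rad52 peaks overlapped between h1D-h2D and WT. Of 28 locus lists, some of which share members, 2 had more members covered in both h1D-h2D libraries than in either WT library, the HXT and the FLO genes, and 3 had fewer, the hyphen-named Ty loci, the snoRNA genes and the small-subunit ribosomal protein genes. With lists of equal length the snoRNA and small-subunit differences were 0 and 0, beside −2.5 and −1.5 with the full lists. At or above the pooled median score the FLO difference was 0 and the HXT difference −1, while large-subunit ribosomal protein genes differed by −12.5, small-subunit genes by −5 and snoRNA genes by −7. That limit sets the authors' score, of unknown scale, across lists, and it kept 368 and 199 peaks in h1D-h2D and 356 and 325 in WT. Whether these differences follow from the short list of h1D-h2D replicate 2 was not tested. Peaks covered 224 and 232 of 275 tRNA genes in h1D-h2D and 229 and 248 in WT. Of 81 large-subunit ribosomal protein genes, 79 were covered in each of the 4 lists, and of 56 small-subunit genes 53 and 53 in h1D-h2D and 54 and 55 in WT. The snoRNA genes, whose RNAs guide ribosomal RNA modification, numbered 70 and 67 of 76 in h1D-h2D and 71 and 71 in WT. Genes for glycolysis and fermentation were covered 16 and 15 times out of 25 in h1D-h2D and 15 and 14 times in WT. Histone genes (8 of 10), translation elongation genes (8 of 10), Hsp70 and Hsp90 genes (6 of 8) and the 2 CUP1 metallothionein genes had the same count in every list.

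The Ty loci differed with the list used. Of 34 hyphen-named Ty loci, 9 and 15 were covered in h1D-h2D and 17 and 22 in WT, so the genotypes did not overlap (exact permutation p = 0.333, the smallest possible). Of these loci 4, or 11.8%, were covered in both WT libraries and neither h1D-h2D library (YBL005W-B, YDR365W-B, YGR109W-B and YIL082W-A), beside 0.684% of all genes, and none was gained. An overlap of 1 bp counted as covered. WT peaks overlapped 100% and 100% of YDR365W-B and 39.9% and 41.1% of YBL005W-B. They touched only 6.50% and 4.03% of YGR109W-B and 19.7% and 0.0667% of YIL082W-A, and neither of these lay in a lost region. Of 10 Ty loci with plain names, added after the data were seen, 3 and 5 were covered in h1D-h2D and 1 and 4 in WT. With all 44 Ty loci the counts were 12 and 20 in h1D-h2D and 18 and 26 in WT, which overlap (exact permutation p = 0.667). Between replicates the count differed by 8 in each genotype, and replicate 2 was the higher in both. At or above the pooled median score the difference for the 34 loci was −1.

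**Figure D3:**
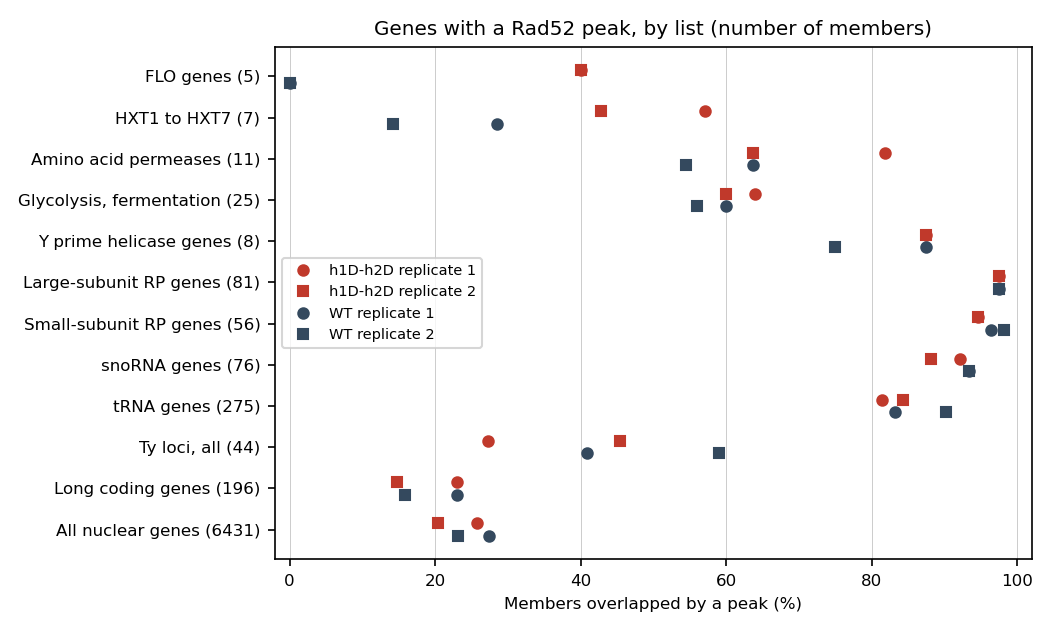
Percentage of the members of 12 gene lists overlapped by a Rad52 peak in each library, h1D-h2D in red above WT in dark blue, with circles for replicate 1 and squares for replicate 2. The FLO and HXT genes are the lists shown with both h1D-h2D points to the right of both WT points, and ribosomal protein, snoRNA and tRNA genes stay above 80% in the 4 libraries.

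Over the shared regions the mean peak length was a little lower in h1D-h2D than in WT, but the libraries overlapped and no single region passed the test. Median peak length in the 497 regions was 2184 and 1544 bp in h1D-h2D and 2320 and 1817 bp in WT, which overlap (exact permutation p = 0.667). The median difference in log2 length was −0.08, a fold of 0.948, and the mean was lower in h1D-h2D in 437 of 497 regions, or 87.9%. These regions share any shift of a whole library, so they are not replicates of a genotype. limma called 0 regions wider and 0 narrower at an adjusted p of 0.05 (smallest adjusted p = 0.418), and at an unadjusted p of 0.05 it called 1 wider and 4 narrower. Both h1D-h2D libraries lay below both WT libraries in 66 regions (13.3%) and above them in 2 (0.402%). The split changed when the shift common to all regions was taken out: once each library was centred on its median, 21 regions (4.23%) were narrower and 43 (8.65%) wider.

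The narrowest in h1D-h2D was the region of OLE1, the fatty acid desaturase gene, with SDS23 and ERV14 (VII 397524–402137). Its peaks measured 1272 and 1074 bp in h1D-h2D and 4607 and 3196 bp in WT (log2 difference −1.71 ± 0.25 SE, limma adjusted p = 0.418). The WT peaks reached over OLE1 and the h1D-h2D peaks did not. Next was a region with a pair of tRNA genes between SPO13 and MIP6 (VIII 132462–134996), at 1251 and 1145 bp in h1D-h2D and 2535 and 2461 bp in WT (log2 difference −1.06 ± 0.17 SE, limma adjusted p = 0.418). Replicates lay close together there and the genotypes far apart. The region of GCD11, a translation initiation factor 2 subunit gene (V 204719–208663), measured 1764 and 1407 bp in h1D-h2D and 3945 and 2720 bp in WT. That of YHB1, which encodes a nitric oxide-detoxifying flavohaemoglobin (VII 958230–961955), measured 2297 and 1632 bp in h1D-h2D and 3725 and 2911 bp in WT. The region of SAH1 (S-adenosylhomocysteine hydrolysis) and ERG28 (V 235043–238775) measured 2429 and 1454 bp in h1D-h2D and 3733 and 2895 bp in WT. These 5 regions were picked because both h1D-h2D libraries lay below both WT libraries, so that order is a description. None passed the test across all regions.

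A further region held RPC19, a subunit of RNA polymerases I and III, and DBP2, an RNA helicase (XIV 412563–418454). Most of its length difference was in 1 library, with 4898 and 1182 bp in h1D-h2D and 5863 and 5697 bp in WT. RPC19 itself was covered in both WT lists and in neither h1D-h2D list. The others named by the same rule were the regions of NME1 (the RNase MRP RNA gene), RPS2, RPL34A with FCY2, and RRP15 with NOC4, with log2 differences between −0.43 and −0.22. The 2 regions longer in both h1D-h2D libraries followed. YFL066C, YFL065C and YFL064C, at the left end of chromosome VI (VI 1885–5906), had peaks of 3954 and 2688 bp in h1D-h2D and 1969 and 1691 bp in WT (log2 difference 0.84 ± 0.26 SE, limma adjusted p = 0.995). YCL001W-A with YCR001W, which are beside the centromere of chromosome III (III 113029–116555), had peaks of 3527 and 1865 bp in h1D-h2D and 1761 and 1488 bp in WT. After centring, limma called the chromosome VI region wider and the OLE1 and RPC19 regions narrower. That fit took each variance from the trend over all regions, so a region's own replicate spread did not enter. The SE of the RPC19 region was 0.68 before centring and 0.26 after it.

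**Figure D4:**
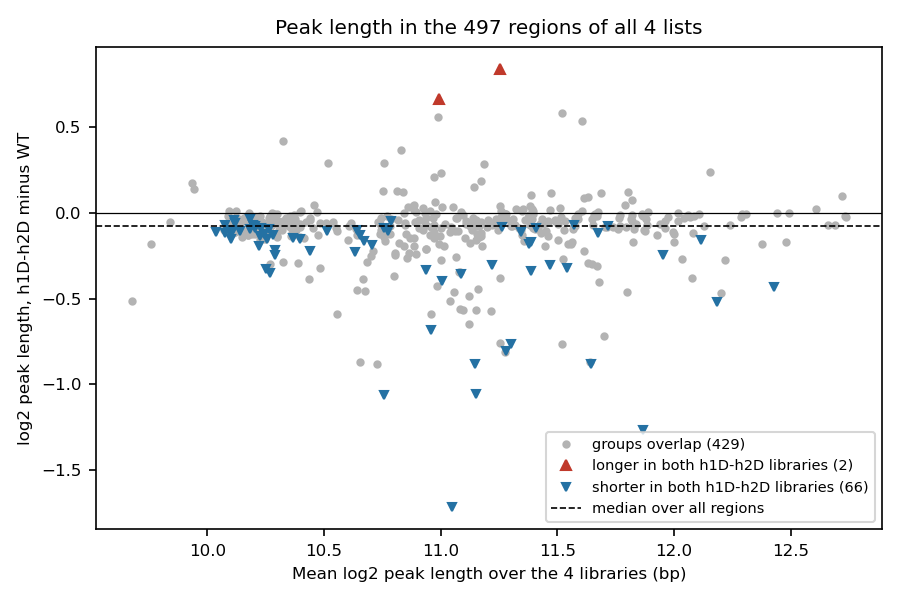
Difference in log2 peak length, h1D-h2D minus WT, against mean log2 length (bp) for the 497 regions present in all 4 lists. Triangles mark the 2 regions longer and the 66 shorter in both h1D-h2D libraries than in both WT libraries, and the dashed line is the median over all regions, −0.08; most points sit just under 0, and OLE1 is the lowest.

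Taken over all measured genes, the reach of peaks past the gene ends overlapped between the genotypes. Over 1135 genes with a peak in all 4 lists that could be measured, the median reach of the peak past the 5′ end was 758 and 531 bp in h1D-h2D and 812 and 606 bp in WT, and past the 3′ end 744 and 618 bp in h1D-h2D and 763 and 682 bp in WT. The exact permutation p was 0.667 for each. The difference of the means, h1D-h2D minus WT, was −64.5 bp upstream and −41.5 bp downstream; it was 49 and 21.5 bp without h1D-h2D replicate 2, and 38.5 and −1 bp without WT replicate 1. Reach was shorter in both h1D-h2D libraries than in both WT libraries at 17.7% of genes upstream and 16.7% downstream, and longer at 0.793% and 1.85%. For tRNA genes the upstream reach was 589 and 517 bp in h1D-h2D and 610 and 571 bp in WT, with 58 of 205 genes shorter, or 28.3%, and downstream 33 were shorter, or 16.1%. Past the 3′ end of small-subunit ribosomal protein genes, peaks extended by 721.5 and 674 bp in h1D-h2D and 756.5 and 704 bp in WT, with 15 of 52 shorter, or 28.8%, and upstream 3 were shorter, or 5.77%. Among the classes measured, only long coding genes had a median reach that did not overlap between the genotypes. Past their 3′ end it was 791.5 and 750 bp in h1D-h2D and 827.5 and 794 bp in WT (exact permutation p = 0.333). Of these 20 genes, 4 were shorter downstream, or 20%, and 3 upstream, or 15%. For tRNA and small-subunit genes the shares thus lay above the background at 1 end and near or below it at the other. These classes were not alone in this. Shorter reach was found at 25% of 8 histone genes at each end, and at 40% of 5 snRNA genes downstream and 0% upstream. Large-subunit genes stood at 16.5% upstream and 12.7% downstream. Neighbouring genes often share a peak.

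In the order of scores no single region passed the test either. A region's rank was taken among the 497 regions alone, so lists of unequal length could be compared, and higher ranks of some regions force lower ranks of others. limma called 0 regions higher and 0 lower (smallest adjusted p = 0.998), and at an unadjusted p of 0.05 it called 9 higher and 7 lower. Both h1D-h2D libraries ranked above both WT libraries in 57 regions (11.5%) and below them in 75 (15.1%).

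Ribosomal protein genes held more lower than higher ranks in h1D-h2D. Of 77 regions with a large-subunit gene, 21 ranked lower in both h1D-h2D libraries and 4 higher, or 27.3% and 5.19%, and of 51 with a small-subunit gene 16 ranked lower and 2 higher, or 31.4% and 3.92%. Over the 120 regions of both subunits, the median rank was 75.4 and 68.1 in h1D-h2D and 78.0 and 76.7 in WT. The genotypes do not overlap in this median, and 34 of the 120 regions had a higher mean rank in h1D-h2D. By subunit, the median was 74.2 and 67.8 in h1D-h2D and 74.8 and 76.1 in WT for large-subunit regions. For small-subunit regions it was 80.7 and 69.6 in h1D-h2D and 81.5 and 80.5 in WT, which overlap. In each case h1D-h2D replicate 2 was the lowest library, and h1D-h2D replicate 1 lay close to WT replicate 1. RPL8B, which encodes a large-subunit protein (XII 47247–49129), ranked at 33.6 and 40.6 in h1D-h2D and 68.4 and 68.6 in WT (difference −31.4 ± 6.48 SE, limma adjusted p = 0.998). Its close copy RPL8A was among the top 10 regions of all 4 lists, and the copies can share reads. The snoRNA genes, some of which lie in or beside ribosomal protein genes, had 10 of 51 regions lower and 2 higher.

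Chromosome ends and glycolytic genes held more higher ranks. Of 21 shared regions within 20 kb of a chromosome end, 5 ranked higher in both h1D-h2D libraries and 1 lower (23.8% and 4.76%), and 15 had the higher mean in h1D-h2D. Their median rank was 61.8 and 36.0 in h1D-h2D and 55.7 and 21.9 in WT, which overlap. The Y prime gene YJL225C, at the left end of chromosome X (X 1–1093), ranked at 83.9 and 88.1 in h1D-h2D and 46.9 and 26.2 in WT (difference 49.5 ± 9.41 SE, limma adjusted p = 0.998). YIL177C, at the left end of chromosome IX (IX 1–1085), ranked at 87.5 and 91.3 in h1D-h2D and 58.8 and 38.2 in WT, and YLL067C, at that of chromosome XII (XII 1–1273), at 51.3 and 90.9 in h1D-h2D and 17.1 and 30.6 in WT. All 3 are the outermost peaks of their chromosome arms, and Y prime copies share reads, so they are not independent sites. They were picked by their gaps. Of 6 shared regions with a listed Y prime helicase gene (YRF1), 1 ranked higher in both h1D-h2D libraries and 0 lower (16.7% and 0%). The regions of YRF1-8 and of YRF1-4 with YRF1-5 had the lower mean rank in h1D-h2D, and the rest of these had the higher.

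Of 14 regions with a glycolysis or fermentation gene, 6 ranked higher in both h1D-h2D libraries and 1 lower (42.9% and 7.14%). The glyceraldehyde-3-phosphate dehydrogenase gene TDH2 (X 452857–455560) ranked at 93.8 and 93.4 in h1D-h2D and 80.5 and 83.7 in WT. GPM1, the phosphoglycerate mutase gene (XI 161821–165720), ranked at 81.7 and 81.9 in h1D-h2D and 65.8 and 70.2 in WT. CDC19 (pyruvate kinase), PGK1, TPI1 and TDH3 made up the 6, by margins of 0.201 to 1.81 percentile points between the genotypes, and PGI1 was the 1 lower. HXT1 (VIII 290342–293184) ranked at 70.8 and 58.1 in h1D-h2D and 42.1 and 45.9 in WT.

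In the other regions both directions were found. Of 196 regions with a tRNA gene, 26 ranked higher and 16 lower in both h1D-h2D libraries (13.3% and 8.16%), beside 11.5% and 15.1% of all regions. ASN2 (asparagine synthesis) with a tRNA gene (VII 738515–739958) ranked at 52.5 and 57.9 in h1D-h2D and 36.8 and 24.1 in WT, while the tRNA gene YNCB0018W with ERV15 (II 644184–645786) ranked at 8.05 and 21.3 in h1D-h2D and 41.7 and 40.8 in WT. tRNA genes thus appear at both extremes. The silent mating-type genes HMRA1 and HMRA2 (III 293488–296234) ranked at 59.6 and 59.2 in h1D-h2D and 41.4 and 31.2 in WT. YHB1 had the widest gap between the genotypes on the lower side, at 48.9 and 31.4 in h1D-h2D and 90.9 and 86.7 in WT (difference −48.7 ± 8.61 SE, limma adjusted p = 0.998), and its peaks were also shorter. FET3, the iron uptake ferroxidase gene (XIII 387818–391424), ranked at 51.7 and 1.61 in h1D-h2D and 83.1 and 69.0 in WT, and HEM1, of haem synthesis (IV 928714–931427), at 36.0 and 32.8 in h1D-h2D and 54.3 and 51.7 in WT. The CUP1 array (VIII 211889–216596) ranked at 89.5 and 40.4 in h1D-h2D and 99.4 and 98.2 in WT. The histone H3 and H4 genes HHT1 and HHF1 (II 254355–258202) ranked at 26.4 and 67.6 in h1D-h2D and 76.7 and 84.9 in WT. At FET3, CUP1 and HHT1 the h1D-h2D libraries were far apart, and 1 of the 2 was well below the other.

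**Figure D5:**
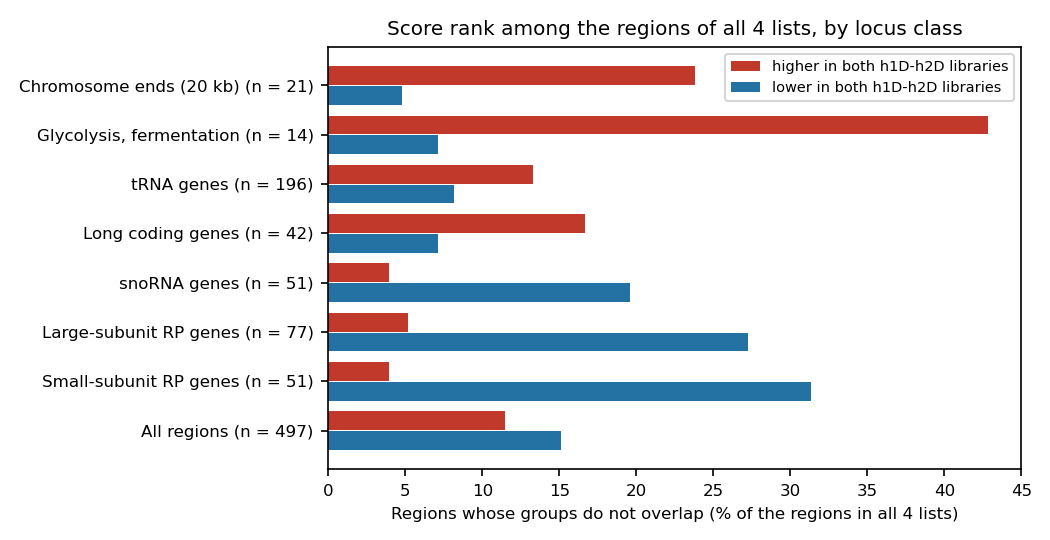
Percentage of the shared regions of each locus class whose score rank was higher (red) or lower (blue) in both h1D-h2D libraries than in both WT libraries, with the number of regions in brackets. Ribosomal protein and snoRNA genes lean to the lower side, chromosome ends and glycolytic genes to the higher, and the bottom pair gives all 497 regions, at 11.5% and 15.1%.

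Overlap with the other auxin libraries was similar for h1D-h2D and WT. The Jaccard index of h1D-h2D libraries with the Top1-AID library was 0.637 to 0.688, and that of WT libraries 0.679 to 0.694. With the 2 Sen1-AID libraries it was 0.422 to 0.651 for h1D-h2D and 0.396 to 0.676 for WT. With the 4 combined-mutant libraries, which also lack RNase H and have shorter lists of 254 to 305 peaks, it was 0.224 to 0.391 for h1D-h2D and 0.215 to 0.371 for WT. Of the 533 regions found in both h1D-h2D libraries, 40.7% to 44.8% had a peak in each combined-mutant library, and of the 568 found in both WT libraries 39.8% to 43.3% did. The difference in peak number between h1D-h2D and WT was −35.5, and between h1D-h2D Sen1-AID and Sen1-AID it was −297; the difference between these, 261.5, had an exact permutation p of 0.278.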

How the data were processed

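Bowtie2, MACS2 and the build sacCer3 are named in the submitters' processing notes, with no role; versions, the peak threshold, a control library and the treatment of reads that fit several places are not given in the sources used here. The deposited files give each peak's chromosome, start and end, which are plain genome positions (unit: other), and the authors' score. Peaks were called per library, 1 file each. Read depth is unknown, so no interval could be given.

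The members and lists were chosen with earlier results of these data known. Peaks of the 4 lists were merged where they overlapped by 1 bp or more. A region was gained with a peak in both h1D-h2D lists and neither WT list, and lost the other way round. In the regions of all 4 lists, log2 summed peak length and score rank were fitted with limma 3.58.1 (R 4.3.3, other steps in Python 3.11.15), with Benjamini-Hochberg adjustment over 497 regions and a threshold of 0.05. This step was run on simulated regions with known changes. These had equal, independent noise and no shift common to a library, unlike the real lists, so they do not show its power here. Library values were compared by exact two-sided permutation over 6 splits. Gene positions are 1-based, from the RefSeq table of assembly R64, which is sacCer3 (6431 nuclear genes); a chromosome end is the last annotated base or peak. Of the names in 25 gene lists 1 was not found. Hyphen-named Ty loci are coding genes of at least 4 kb, and long coding genes have the same minimum. Named genes are those of the gained and lost regions, the 10 with the highest ranks, the 10 with the widest gaps between genotypes in length (5 in rank) per direction, and up to 4 per list; others, such as URA3, HXT3, CUP1, HHT1 and the glycolytic genes ranked together, were named after their values were seen. Alternatives were a score limit at the pooled median, equal list lengths, peaks within 1 kb joined, presence by overlap of at least 0.5 of the region, no repeated loci or chromosome ends, centring on library medians, groups that do not overlap, a replicate block, and each library left out.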

Additional observations from a re-analysis of the deposited data

Results flagged for a closer look

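Peaks on the mitochondrial chromosome were outside every comparison above, and h1D-h2D replicate 1 held 3 of them. The other libraries held 0 in h1D-h2D replicate 2, 2 in WT replicate 1 and 0 in WT replicate 2, so the signal is above the WT libraries by 1 peak and is in replicate 1 of both genotypes. It is given as a value, and its source was not tested.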

How the results depend on the processing

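Peak number kept its direction in every alternative run. Covered length differed by between −376 and 26.9 kb and median width by between −476.25 and 84.75 bp when 1 library was left out, with the positive values without h1D-h2D replicate 2 (26.9 kb, 84.75 bp) and without WT replicate 1 (8.14 kb, 19.5 bp). Gained regions numbered 1 and lost regions 3 at or above the pooled median score, and lost regions 12 without repeated loci and chromosome ends. Leaving out 1 library gave 18 to 27 gained and 30 to 61 lost regions, since presence in 1 library then decides: 19 and 61 without h1D-h2D replicate 1, 24 and 30 without h1D-h2D replicate 2, 27 and 34 without WT replicate 1, 18 and 61 without WT replicate 2. Gained and lost regions numbered 7 and 16 with joined peaks, 13 and 16 with equal list lengths, and 10 and 23 with presence by covered share. limma called 5 narrower regions without WT replicate 2 (0 to 5 over the libraries left out), and 1 wider and 2 narrower after centring; counted as groups that do not overlap, 2 were wider, 66 narrower, 57 higher and 75 lower in rank. The cause of these changes was not tested. With a replicate block the differences stayed at −35.5 peaks, −175 kb and −195.75 bp (exact p = 0.5, its smallest value) and limma called 0 regions. Same-numbered libraries deviated together (correlation over 497 regions 0.537 for length and 0.568 for rank), but with 2 pairs the numbers are not shown to pair the samples. Of the values for single gene lists and genes under the alternatives, 20 moved by more than the spread between replicates and 268 by less; 54 of the 288 had the opposite sign, 48 of them with 1 library left out. Peak number under equal list lengths is 0 by construction; the block was not run for gained and lost regions or gene lists. Unknown depth limits every count.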
